A study of Mus musculus with 14 samples.

Results

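The genes described here encode the proteins of the cytosolic ribosome. They were the protein-coding genes whose mouse symbol was Rpl or Rps with a number and at most a letter a or l for Rpl, or a, x, l or y for Rps, together with Rplp0, Rplp1, Rplp2 and Rpsa. The rule used names alone, and no measured value entered it. It matched 82 symbols, and Rpl6l and Rps4l were left out because the mouse gene table lists them as pseudogenes. The remaining 80 genes, of 46078 identifiers in the count table, comprised 31 genes of the small (40S) subunit and 49 of the large (60S) subunit. All 80 had enough counts to be tested, among 26990 genes that did. Components with other names, such as Fau, Rack1 and Rps3a1, are given separately.

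A ribosome reads messenger RNA with its small subunit and joins amino acids in its large subunit, and most of its proteins are present once in each particle. Their messenger RNAs are among the most abundant of any cell, and most begin with a terminal oligopyrimidine tract (TOP), a C followed by a run of C and T bases. Through this tract the kinase mTOR and the RNA-binding protein LARP1 control how much of the RNA is translated or kept. Lymphocytes that grow and divide need more ribosomes, and cytokines such as IL-15, which sustains natural killer cells, act on mTOR. The abundance of these RNAs is therefore often read as a sign of growth, although it measures neither ribosomes nor protein synthesis.

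RNA was measured by bulk RNA-seq in lymphocytes sorted from bone marrow of C57BL/6 mice aged 8 weeks, with 2000 cells for each sample. Immature natural killer cells (iNK) were sorted as CD3-, NK1.1+, IL-7Ra-, DX5+, CD11b- and CD27+, and immature type 1 innate lymphoid cells (iILC1) as CD3-, NK1.1+, IL-7Ra+ and CD49a+. Control mice had the genotype Il-15-flox/KO, so that they already carried a knockout allele beside the floxed one. Conditional knockout (cKO) mice had the same alleles and Vav-Cre, a Cre recombinase driven by a promoter of the blood lineages, so that the floxed allele is kept in other tissues. Each cell type had 3 control libraries and 4 cKO libraries. Whether each library came from a mouse of its own is not stated, and p-values then measure the spread between libraries, which may be technical. In bulk RNA, fewer cells of a type and less RNA per cell cannot be told apart.

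Libraries held 3512796 to 12572326 counts, with the control iILC1 libraries the shallowest. Expression is given in CPM, the unit of counts relative to the library total, after that total was scaled by edgeR's TMM factors. Il15 itself was low, at 8.16 to 12.3 CPM in the iNK libraries and 11.2 to 24.95 CPM in the iILC1 libraries, and a count over the whole gene does not resolve the floxed part. The sort markers followed the gates: Il7r averaged 8.44 CPM in control iNK and 408 CPM in control iILC1, and Itga2, which encodes the DX5 antigen, 223 and 88.2 CPM. Cd3e, a T-cell receptor component that the gates exclude, averaged 3.31 CPM in control iNK and 64.2 CPM in control iILC1. Olfactory and vomeronasal receptor genes (symbols beginning with Olfr or Vmn, 1669 genes), which lymphocytes are not known to use, served as a measure of background reads. Their summed CPM was 1621 to 2912 in control iNK, 2004 to 3051 in cKO iNK, 2518 to 3539 in control iILC1 and 1881 to 3437 in cKO iILC1.

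The sequence around the annotated start of transcription was searched for runs of C and T, and 60 of the 80 genes had an entry in RefSeq (build GRCm38.p6), with 72 annotated start sites. A run could lie anywhere in the window and need not begin at the start as a TOP does. It began at base 4 of the transcript for Rps26 and base 9 for Rps12. Each line below runs from 10 bases before to 20 bases from the annotated start, and capitals mark its longest run of C and T. The first 6 were chosen after the sequences were seen because their runs were long, and Rpl41 as an example with a short run.
Rpl28, chr7:4792955-4792984, plus strand: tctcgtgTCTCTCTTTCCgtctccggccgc
Rps26, chr10:128626487-128626516, minus strand: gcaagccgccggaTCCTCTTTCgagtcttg
Rps15a, chr7:118116128-118116157, minus strand: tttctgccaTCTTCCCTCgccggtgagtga
Rps12, chr10:23787190-23787219, minus strand: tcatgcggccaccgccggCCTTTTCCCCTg
Rpl15, chr14:18270967-18270996, minus strand: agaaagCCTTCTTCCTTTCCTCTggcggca
Rplp2, chr7:141447641-141447670, plus strand: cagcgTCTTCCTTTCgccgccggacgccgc
Rpl41, chr10:128549149-128549178, minus strand: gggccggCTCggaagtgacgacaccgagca

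The longest of these was the run of 17 pyrimidines at Rpl15, and that at Rpl41 had 3. A run of at least 6 was present in 39 of the 72 windows (54.2%), against 28.7% of the windows at all 32851 start sites in the same table. The 6 letters CTTTCC lay on the gene's own strand within 13.9% of the ribosomal windows and 1.28% of all windows. Over the full promoter entry of 300 bases, CTTTCC was found on either strand in 36 of the 72 ribosomal entries and 26.6% of all entries. CCGGAAGT, a sequence bound by ETS family factors, occurred on either strand in 16.7% and 3.89%, and TATAAA, the core of the TATA box, in 8.33% and 13.6%. No CTTTCC overlapped a CCGGAAGT read on the other strand in the ribosomal entries. Read that way, CCGGAAGT starts with A and ends with G, which CTTTCC lacks, and does not contain CTTTCC. Such an overlap is therefore impossible in any sequence, and its absence says nothing about these promoters. The runs and sequences counted here are matches of letters at annotated starts and not measured start sites.

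The ribosomal protein genes together took 1.93%, 1.65% and 2.12% of the counts of the control iNK libraries, a mean of 1.90% ± 0.235 (SD, n = 3). In cKO iNK they took 1.47%, 1.79%, 1.84% and 2.23%, a mean of 1.83% ± 0.313 (SD, n = 4). The control iILC1 libraries gave 1.37%, 1.12% and 1.20%, a mean of 1.23% ± 0.129 (SD, n = 3). The cKO iILC1 libraries gave 1.44%, 1.56%, 1.17% and 1.11%, a mean of 1.32% ± 0.216 (SD, n = 4). All 3 control iILC1 libraries lay below all 3 control iNK libraries, while the cKO libraries of both cell types overlapped. Within each cell type the genotypes overlapped as well. The 40S genes alone made up 0.787% ± 0.122 (SD, n = 3) of control iNK counts and 0.496% ± 0.0443 (SD, n = 3) of control iILC1 counts, and the 60S genes 1.11% ± 0.113 and 0.732% ± 0.0851.

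**Figure D1:**
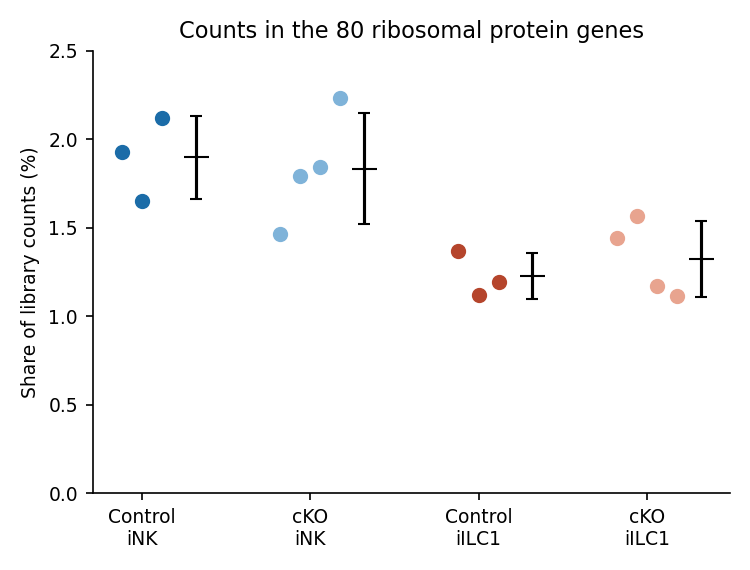
Share of each library's counts (%, y axis) that fell in the 80 ribosomal protein genes, by group on the x axis. Points are libraries and bars give the mean ± SD. Control iNK libraries lie between 1.65% and 2.12% and control iILC1 libraries between 1.12% and 1.37%.

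Summed over the genes, the TMM-normalised level was 24112, 20004 and 21140 CPM in control iNK and 14082, 9067 and 10809 CPM in control iILC1. It was 15966, 15563, 18826 and 23886 CPM in cKO iNK and 17989, 14981, 10205 and 9727 CPM in cKO iILC1. Of the 80 genes, 74 had group means in the same order, highest in control iNK, then cKO iNK, then cKO iILC1, and lowest in control iILC1. After TMM scaling each group also had a library in which most of the genes were highest. This was control iNK replicate 1 for 65 genes, cKO iNK replicate 4 for 75, control iILC1 replicate 1 for 72 and cKO iILC1 replicate 1 for 75. Control iILC1 replicate 2 was the lowest of its group for 57. The scaling bears on this, since control iNK replicate 1 and cKO iILC1 replicate 1 had TMM factors of 0.801 and 0.803, and by unscaled share of counts control iNK replicate 3 and cKO iILC1 replicate 2 were the highest of their groups. In each cell type the means of the summed level in control and cKO differed by less than 1 SD of the cKO libraries, at 21752 ± 2121 (SD, n = 3) and 18560 ± 3836 CPM (SD, n = 4) in iNK and 11319 ± 2546 (SD, n = 3) and 13225 ± 3964 CPM (SD, n = 4) in iILC1.

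Levels differed widely between the genes when divided by exon length. Averaged over the 4 groups, Rplp0 with 488 CPM per kilobase, Rpsa with 466 and Rpl4 with 447 were among the 5 highest. The median gene had 80.5 CPM per kilobase. Lowest were Rpl3l with 1.46, Rpl10l with 1.91, Rpl39l with 2.42, Rpl24 with 2.57 and Rpl35a with 9.15 CPM per kilobase. Exon length is the authors' length per gene, which can sum the exons of many transcripts, and a long value lowers the level per kilobase. Rpl3l, Rpl10l and Rpl39l are relatives of Rpl3, Rpl10 and Rpl39 known from muscle or testis. The 95th percentile of the receptor genes used as background was 3.65 to 4.92 CPM per kilobase in the 4 groups, so these 3 genes and Rpl24, which encodes a universal 60S protein, lay within the background range. Ribosomal protein genes have many near-identical pseudogene copies, and reads that fit both can be lost or split. The table held 268 symbols of such copies, and 57 of the 80 genes had at least 1.

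Control iILC1 cells had lower levels of ribosomal protein RNA than control iNK cells. Of the 80 genes, 44 were lower at an adjusted p below 0.05 and 0 were higher, against 3.0% of all 26990 genes called lower. The median log2 fold change of the 80 genes was −0.97, against 0.16 over all genes tested, and 78 had an estimate below 0 (77 with no scaling factor or with upper quartile scaling). The libraries of both groups did not overlap for 74 of the 80, with iILC1 lower, against 13.0% of all genes. The 6 that overlapped were Rps21, Rps27, Rpl13a, Rpl3l, Rpl10l and Rpl39l. Called and uncalled genes differed by degree: the median log2 fold change was −1.07 for the 44 called and −0.86 for the other 36, and Rps9 (adjusted p = 0.0489) and Rps7 (adjusted p = 0.0504) lay on either side of the threshold with log2 fold changes of −0.93 and −0.96.

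Among 40S genes 21 of 31 were called lower, and all 31 estimates were below 0, with a median log2 fold change of −1.0. Rps19, the gene most often mutated in Diamond-Blackfan anaemia (chromosome 7, 24884371 to 24889806, plus strand, mm10), was at 414, 270 and 325 CPM in control iNK and 177, 117 and 135 CPM in control iILC1. It was at 212, 233, 286 and 411 CPM in cKO iNK and 261, 213, 125 and 150 CPM in cKO iILC1. The control groups stood apart, and the cKO groups overlapped in that cKO iILC1 replicate 1 exceeded cKO iNK replicates 1 and 2. The log2 fold change between control iILC1 and control iNK was −1.23 (SE 0.286, adjusted p = 0.0109).

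Rps15a, another 40S gene (chromosome 7, 118104378 to 118116186, minus strand), gave 205, 146 and 144 CPM in control iNK and 93.0, 56.4 and 64.3 CPM in control iILC1. Its cKO values were 91.0, 117, 149 and 204 CPM in iNK and 127, 119.9, 68.1 and 73.1 CPM in iILC1. Control libraries separated and cKO libraries mixed, as for Rps19. The log2 fold change in control was −1.22 (SE 0.290, adjusted p = 0.0139).

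Rps26, a 40S protein gene at the exit channel for messenger RNA (chromosome 10, 128624530 to 128626506, minus strand), had the largest decrease of the 80 genes. It was at 113, 55.8 and 98.8 CPM in control iNK, and at 39.5, 23.7 and 28.9 CPM in control iILC1. In cKO cells it was at 44.8, 52.0, 79.2 and 138 CPM in iNK and at 69.3, 48.9, 28.6 and 38.5 CPM in iILC1. The span within control iNK was wide, yet its lowest library exceeded the highest control iILC1 library. The log2 fold change was −1.55 (SE 0.354, adjusted p = 0.00987). Other 40S genes among the calls with the smallest p were Rps27a, which encodes ubiquitin fused to a ribosomal protein (−1.15, adjusted p = 0.0154), and Rps12 (−1.18, adjusted p = 0.0161).

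Of the 60S genes 23 of 49 were called lower and 47 estimates were below 0, with a median log2 fold change of −0.94. The difference between the subunits was not tested. Rpl28 (chromosome 7, 4792874 to 4794562, plus strand) was at 98.2, 59.9 and 81.1 CPM in control iNK and 42.7, 20.1 and 29.1 CPM in control iILC1. The lowest iNK library stood above the highest iILC1 library. Its log2 fold change was −1.39 (SE 0.302, adjusted p = 0.00632). Rpl32 (chromosome 6, 115805505 to 115808747, minus strand), a 60S gene long used as a reference transcript, was at 426, 271 and 329 CPM in control iNK and 181, 113 and 112 CPM in control iILC1. Its log2 fold change was −1.34 (SE 0.308, adjusted p = 0.0102).

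Rpl41, which encodes a very short basic protein, changed by −1.32 (adjusted p = 0.0149), Rpl36 by −1.37 (adjusted p = 0.0176), and Rpl10, which helps to join the subunits, by −1.06 (adjusted p = 0.0156). Among genes above the background range, the estimate nearest to 0 was that of Rpl13a (−0.65, SE 0.292, adjusted p = 0.206), followed by Rpl4 (−0.68, SE 0.268, adjusted p = 0.148). Neither passed.

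The acidic stalk of the large subunit recruits elongation factors and is built of the products of Rplp0, Rplp1 and Rplp2. Rplp0, the base of the stalk, was at 1175, 1129 and 1058 CPM in control iNK and 715, 441 and 598 CPM in control iILC1, and fell by 0.94 on the log2 scale (SE 0.261, adjusted p = 0.0386). The estimates for Rplp1 (−1.0, SE 0.298, adjusted p = 0.0535) and Rplp2 (−0.98, SE 0.326, adjusted p = 0.0842) were as large and did not pass. Their replicates were more spread, with Rplp2 at 134, 62.7 and 87.0 CPM in control iNK and 62.0, 43.5 and 38.5 CPM in control iILC1.

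**Figure D2:**
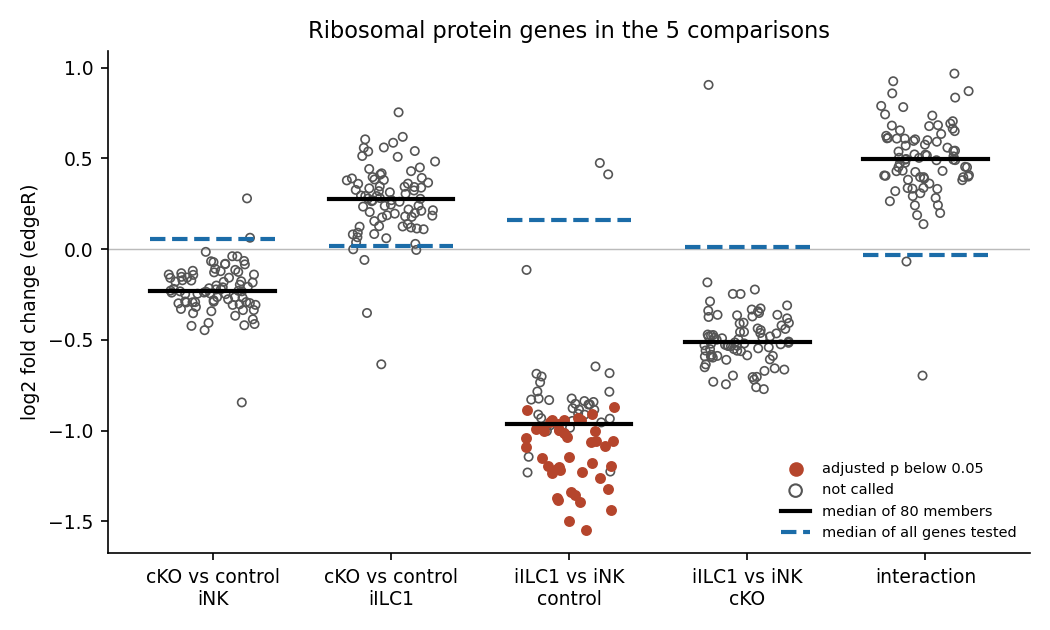
Log2 fold changes of the 80 ribosomal protein genes (points) in each of the 5 comparisons, with the median of the genes beside the median of all genes tested. In control cells the genes centre on −0.97 and all genes on 0.16, while the genotype comparisons centre on −0.23 in iNK and 0.28 in iILC1.

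Pairs of related genes let a common gene be set beside its variant. Rps27l, a relative of Rps27 induced by p53, was at 38.6, 23.9 and 45.7 CPM in control iNK and 15.2, 9.14 and 14.1 CPM in control iILC1 (chromosome 9, 66946086 to 66949516, plus strand). It fell by 1.5 on the log2 scale (SE 0.378, adjusted p = 0.0205). Rps27 itself, at 179, 84.6 and 100.2 CPM against 88.3, 59.0 and 44.1 CPM, had an estimate of −0.93 (SE 0.360, adjusted p = 0.142), and its libraries overlapped. Rpl39 fell (−1.38, SE 0.346, adjusted p = 0.0201), whereas Rpl39l, with 1.6 to 2.29 CPM in control iNK and 1.46 to 2.02 CPM in control iILC1, gave −0.11 (adjusted p = 0.926), and 0.24 with no scaling factor.

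Rpl10l gave 0.41 (adjusted p = 0.724) and Rpl3l 0.47 (adjusted p = 0.680), both at 5.17 CPM or less in the control libraries. Rpl3l was counted 0 times in control iILC1 replicate 1, which at that depth allows up to 0.877 CPM (3 counts). For Rpl3 the estimate was −0.83 (SE 0.249, adjusted p = 0.0558). Rpl22, Rps4x and Rpl7, the common partners of Rpl22l1, Rps4l and Rpl7l1, fell by 0.91, 0.89 and 0.96 on the log2 scale, with adjusted p of 0.0361, 0.0361 and 0.0386. Of all 14 paralogs listed, 12 had estimates below 0 and 6 were called lower, against 3.0% of all genes. Rpl22l1, Rps4l and Rpl7l1 were among the 12 and not among the 6. The difference between partners of a pair was not tested.

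**Figure D3:**
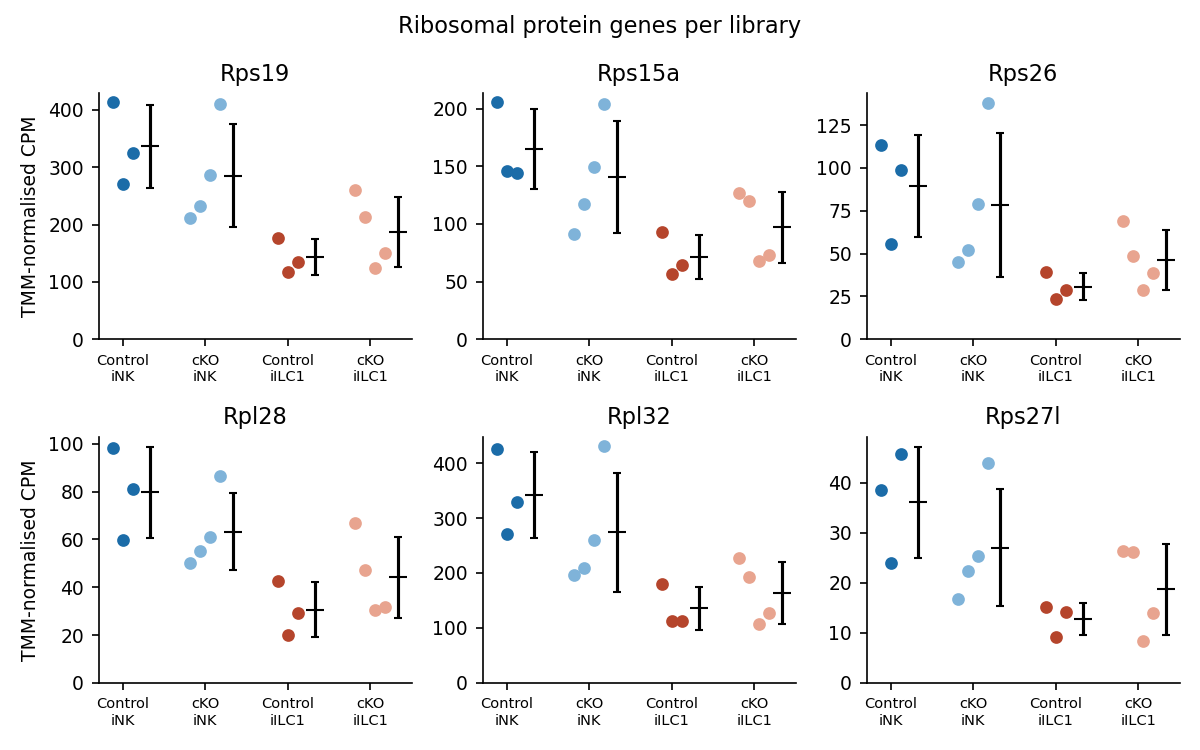
TMM-normalised CPM (y axis) of Rps19, Rps15a, Rps26, Rpl28, Rpl32 and Rps27l in every library, by group on the x axis, with the mean ± SD. For each gene the 3 control iILC1 points lie below the 3 control iNK points, and the cKO groups overlap.

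Several measures moved with this comparison. The summed CPM of 6 genes of dividing cells (Mki67, Top2a, Mcm2, Mcm5, Ccnb1 and Cdk1), none of them at 0 in any group, as in the other marker lists, was 1143 to 1647 in control iNK, 585 to 738 in cKO iNK, 370 to 556 in control iILC1 and 335 to 442 in cKO iILC1. Markers of T cells (9 genes) summed to 118 to 137 CPM in control iNK and 193 to 348 CPM in control iILC1. Dendritic cell markers (7 genes) summed to 543 to 968 and 353 to 470 CPM, myeloid markers (9 genes) to 114 to 381 and 62.6 to 81.0 CPM, and those of early progenitors (5 genes) to 86.5 to 167 and 171 to 240 CPM. The dendritic genes did not move together: 5 of the 7 had estimates above 0, with a median of 0.42, and 2 were called lower. The sums of B-cell markers (12 genes, 420 to 641 and 460 to 673 CPM) and erythroid markers (9 genes, 351 to 424 and 234 to 422 CPM) overlapped. Estimates were above 0 for 11 of the 12 B-cell genes, 2 of them called, and for 7 of the 9 erythroid genes. The part of other cells and of cell division in the lower ribosomal protein RNA was not tested.

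Background reads moved with it too. With the log2 summed CPM of the receptor genes as a covariate, 50 of the 80 ribosomal protein genes (62.5%) were lower in libraries with more background, against 21.5% of all genes. In that fit 9 genes were called lower in control iILC1, against 1.71% of all genes. Among them were Rpl28, Rpl10, Rps2, Rpl5 and Rplp0, and also Rpsa, which had not passed in edgeR without the covariate (adjusted p = 0.0601). The median log2 fold change of the 80 became −0.66, with 0.00 over all genes and all 80 estimates below 0. For Rpl28 the estimate was −0.99 (adjusted p = 0.0457) and for Rpl10 −0.75 (adjusted p = 0.0257), while Rps19 (−0.86, adjusted p = 0.0515), Rps26 (−1.15, adjusted p = 0.0958) and Rpl32 (−0.91, adjusted p = 0.0610) no longer passed. The receptor genes and the cell types partly separate the same libraries, since control iILC1 replicates 2 and 3 had more background than any control iNK library.

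**Figure D4:**
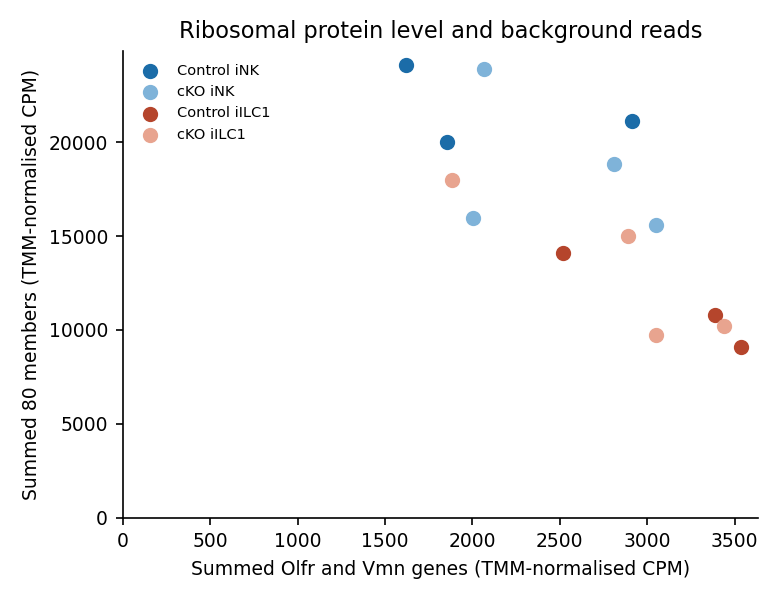
Summed level of the 80 ribosomal protein genes (TMM-normalised CPM, y axis) against the summed olfactory and vomeronasal receptor genes (TMM-normalised CPM, x axis), with 1 point for each of 14 libraries. Control iILC1 replicates 2 and 3 combine 3539 and 3388 CPM of background with 9067 and 10809 CPM of ribosomal protein RNA.

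The number of calls rested on single libraries, and the fold changes much less so. Without control iNK replicate 1 the 44 calls became 2, without control iILC1 replicate 2 they became 1, and without control iILC1 replicate 3 they became 3. Leaving out cKO iILC1 replicate 1, which belongs to neither group and enters through the shared spread, filter and scaling, raised them to 67. The share of all genes called lower moved in the same directions. It went from 3.0% to 1.20%, 0.875%, 1.10% and 5.32% in these fits in turn. The median log2 fold change of the ribosomal protein genes stayed between −1.18 and −0.84 over the 14 omissions. Of the 25 alternatives run, Rpl28 passed in 23, with adjusted p of 0.000148 to 0.0903, and Rpl10 and Rps2 in 22. With no scaling factor the median of all genes moved from 0.16 to 0.49 and that of the ribosomal protein genes from −0.97 to −0.65. The distance between both medians was −1.13 with TMM scaling and −1.14 without.

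**Figure D5:**
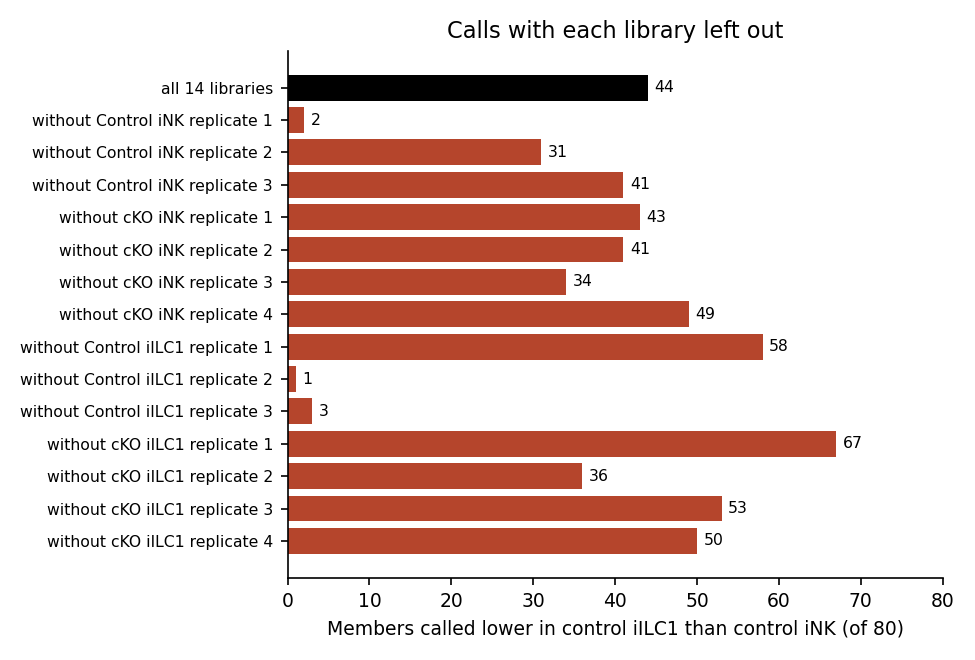
Number of the 80 ribosomal protein genes called lower in control iILC1 than in control iNK (x axis, edgeR, adjusted p below 0.05) with all 14 libraries (44) and with each library left out (y axis). The bars range from 1 without control iILC1 replicate 2 to 67 without cKO iILC1 replicate 1. Of all genes, 0.875% and 5.32% were called lower in those fits, against 3.0% with all 14 libraries.

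In cKO cells the same comparison of cell types gave lower estimates in iILC1 for 79 of 80 genes, with a median log2 fold change of −0.51 against 0.01 over all genes. No gene passed in edgeR, where 3.42% of all genes did, although 41 had an unadjusted p below 0.05 (2692 of all 26990 genes did). DESeq2 called 2 lower, against 2.00% of all genes. Without cKO iNK replicate 4 the median was −0.31. Rpl39 (−0.77), Rps26 (−0.76), Rpl32 (−0.75) and Rpl35a (−0.72) were among the lowest estimates, with adjusted p of 0.146 to 0.254. The highest estimate of the 80 was 0.90. Libraries did not overlap, with iILC1 lower, for Rpl34, Rpl3 and Rpsa, which encodes a 40S protein also known as the laminin receptor. These were 3.75% of the 80 genes, near the 3.08% of all genes. Rpl3 was at 947, 801, 999 and 1101 CPM in cKO iNK and 796, 691, 586 and 486 CPM in cKO iILC1. Without cKO iILC1 replicate 1, the library with the highest TMM-normalised ribosomal protein level of its group, though not the highest share of counts, 16 genes were called lower. Without that library and control iNK replicate 1 there were 19. Of all genes 2.38% and 2.37% were called lower in these fits, against 1.68% with all 14 libraries.

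No ribosomal protein gene passed the test between genotypes in either cell type. In iNK cells 78 of 80 genes had lower estimates in cKO than in control, and 52 of 80 with no scaling factor, but none passed and none had an unadjusted p below 0.05. Over all genes 0.408% passed and 2125 of 26990 had such a p. The median log2 fold change was −0.23 against 0.06 over all genes. It was −0.08 without control iNK replicate 1, with 24 estimates above 0, −0.13 and −0.15 without cKO iNK replicates 1 and 2, and −0.39 without cKO iNK replicate 4. The lowest estimates were those of Rpl10l (−0.85, SE 0.606), Rpl41 (−0.45, SE 0.289), Rps2, which helps to form the entry of the messenger RNA channel (−0.42, SE 0.225), Rpl35 (−0.42, SE 0.336) and Rpl29 (−0.41, SE 0.232). Their adjusted p ran from 0.673 to 0.800, and the highest estimate of the 80 was 0.28.

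For Rps2, Rpl6, Rpl5, Rpl7a, Rpl29 and Rplp0, all cKO iNK libraries lay below all control iNK libraries. These were 7.5% of the 80 genes, against 4.75% of all genes. Rps2 was at 603, 574 and 629 CPM in control and 456, 364, 464 and 511 CPM in cKO iNK, and its adjusted p was 0.673. Rpl5, whose product carries 5S RNA and binds Mdm2, was at 424, 393 and 410 CPM in control and 317, 289, 354 and 363 CPM in cKO iNK. For most others cKO iNK replicate 4 reached the control level. B-cell markers, which a gate on NK1.1 should exclude, summed to 420 to 641 CPM in control iNK and 824 to 1304 CPM in cKO iNK. All 12 B-cell genes had higher estimates in cKO, 6 of them called, with a median of 1.35 on the log2 scale. The genes of dividing cells were lower in cKO. Progenitor markers summed to 86.5 to 167 CPM in control iNK and 184 to 229 CPM in cKO iNK. Erythroid sums overlapped, at 351 to 424 and 278 to 862 CPM, but 8 of 9 erythroid genes had higher estimates in cKO, 2 of them called, with a median of 2.18 on the log2 scale. Their part in these estimates was not tested.

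In iILC1 cells the estimates leaned the other way, with 75 of 80 estimates higher in cKO (65 with no scaling factor), a median log2 fold change of 0.28 against 0.01 over all genes, and none past the threshold. Of all genes 0.0482% passed, and 1221 of 26990 had an unadjusted p below 0.05. The median was 0.09 without cKO iILC1 replicate 1, with 21 estimates below 0, 0.16 without control iILC1 replicate 2, 0.18 without cKO iILC1 replicate 2 and 0.50 without control iILC1 replicate 1. Only Rpl27 (0.62, SE 0.274) and Rpl37a (0.75, SE 0.364) were below 0.05 before adjustment, at 0.0322 and 0.0478, with adjusted p of 0.979 for both. Rpl27 was at 62.9, 48.5 and 46.7 CPM in control and 121, 86.9, 54.9 and 59.5 CPM in cKO iILC1. Rps26 (0.60), Rpl38 (0.59) and Rps27l (0.56) followed, and the lowest estimate of the 80 was −0.63. No gene had all cKO iILC1 libraries above all control iILC1 libraries, against 2.66% of all genes. Marker sums differed without overlap between control and cKO iILC1 for B cells (460 to 673 and 722 to 1146 CPM), progenitors (171 to 240 and 264 to 345 CPM) and ILC1 (9 genes, 1587 to 2360 and 2639 to 4431 CPM). Of the B-cell genes, 6 had estimates above 0 and 6 below, with a median of 0.096, and 2 were called higher. Estimates were above 0 for 4 of 5 progenitor and 8 of 9 ILC1 genes. The T-cell sums overlapped (193 to 348 and 133 to 219 CPM), but 6 of 8 tested T-cell genes had estimates below 0, 1 of them called. The part of these markers in the ribosomal protein estimates was not tested.

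Whether the genotype acted differently in the 2 cell types was tested as an interaction, the cKO effect in iILC1 less that in iNK. No ribosomal protein gene passed, against 0.0778% of all genes, and 4 had an unadjusted p below 0.05, as did 1905 of all 26990 genes. DESeq2 called none in this or in either genotype comparison. The estimates were above 0 for 78 of 80 genes (70 with no scaling factor), with a median of 0.49 against −0.03 over all genes. Rps27l (0.97, SE 0.486), Rpl28 (0.87, SE 0.391), Rpl27 (0.86, SE 0.380) and Rpl37a (0.83, SE 0.503) were among the largest, with adjusted p of 0.705 to 0.717. The lowest estimate of the 80 was −0.70. With the background covariate the median became 0.24, with no scaling factor 0.19, and without cKO iILC1 replicate 1 it was 0.27. The test of the difference therefore does not show that the 44 calls in control and 0 in cKO reflect an effect that differs between genotypes.

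Other genes of translation gave lower estimates in control iILC1 as well. Of 8 ribosomal components with names outside the rule, Rack1, a scaffold on the 40S subunit (−0.93, adjusted p = 0.0265), and Rps3a1 (−1.03, adjusted p = 0.0311) were called lower. All 8 estimates were below 0, with a median of −0.94, while 3.0% of all genes were called lower. Of 23 translation genes known for a TOP tract, all 23 estimates were below 0, with a median of −0.82, and 10 were called lower. They were Npm1, a nucleolar chaperone (472 CPM in control iNK and 225 CPM in control iILC1, −1.07, adjusted p = 0.00894), the poly(A)-binding protein gene Pabpc1 (−0.97), Eef1b2, Eif3f, Eif3l, Hnrnpa1 (−1.17, adjusted p = 0.00114), Naca, Btf3, Nap1l1 and Rack1. Eef1a1, the most abundant elongation factor, averaged 4686 CPM in control iNK and 3049 CPM in control iILC1 and did not pass (−0.62, adjusted p = 0.221). In cKO cells Hnrnpa1 was the single one of the 23 called between cell types (−0.70, adjusted p = 0.0269), and in both genotype comparisons none passed.

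Among 24 other initiation and elongation genes all 24 estimates were below 0 in control iILC1, with a median of −0.61. Of these, 2 were called lower, Eif2s2 and Eif3i, against 3.0% of all genes. Among 30 genes of ribosome assembly all 30 estimates were below 0, with a median of −0.65. The 6 called lower were Ncl, Dkc1, Gar1, Nhp2, Nop2 and Nolc1. Dkc1, which encodes dyskerin, a pseudouridine synthase of ribosomal RNA, changed by −0.93 (adjusted p = 0.0136). Of 13 genes that control TOP translation, none passed and the median was −0.33. There Eif4ebp1, an mTOR target that blocks initiation, gave −1.14 (adjusted p = 0.0785) and Larp1 −0.67 (adjusted p = 0.109). An unadjusted p below 0.05 was found for 4 of the 13, and for 5615 of all 26990 genes. Mitochondrial ribosomes are built of a separate set of nuclear-encoded proteins. Of their 77 tested genes 9 were called lower, the median was −0.66, and all 77 estimates were below 0.

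Of 268 symbols of ribosomal protein pseudogenes 128 were tested, with a median of −0.08 and 67 estimates below 0. Of the 128, 5 were called lower, against 3.0% of all genes. Libraries did not overlap for 26 (20.3%) with iILC1 lower, against 13.0% of all genes, and for 11 with iILC1 higher. Summed over the 268, the level was 657 to 782 CPM in control iNK and 468 to 592 CPM in control iILC1. Genes with at least 1 such copy and genes with none had similar medians in control, at −0.99 (35 of 57 called lower) and −0.95 (9 of 23 called lower). The difference between these groups of genes was not tested.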

How the data were processed

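The authors deposited raw counts per Ensembl gene for 14 libraries, with no normalization, per the file headers. Full-length cDNA kits that do not mark strand were used, per the labels' protocols. Per the submitters' processing notes, the tools were HISAT2 2.1.0, Trimmomatic 0.33 and featureCounts (Subread 1.6.5), on mm10. Which annotation release was used, whether reads were counted by strand and how reads with several matches were treated is not given in the sources used here. Of 46078 identifiers, 45143 (97.97%) matched a symbol.

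Genes were kept by filterByExpr (minimum count 10, minimum total 15). Counts were scaled by TMM and tested with edgeR 4.0.16 (R 4.3.3), using the quasi-likelihood F test, two-sided, in 1 fit of all 14 libraries with 4 group means (10 residual degrees of freedom), and Benjamini-Hochberg adjustment over 26990 genes at 0.05. The SE was derived from the F statistic. The limit for a count of 0 was set at 3 counts and covers counting error only. The test was checked on simulated data. Alternatives were DESeq2 1.42.0, other scalings, filters, the covariate, a replicate block, fits of fewer groups and omitted libraries.

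Genes were named in a comparison as the 12 with the smallest p in each direction among those past the threshold, the 5 largest and 5 smallest fold changes, and listed paralogs and stalk genes. Where no gene passed, the paralogs and stalk genes and the 5 genes at the end of the range nearest to 0 or of opposite sign were left out for length. A gene outside this rule, such as those near a threshold or without overlap, was chosen after its values were seen. The members, gene lists, rule and alternatives were chosen with earlier results of these data known. Some genes are not reported here.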

Additional observations from a re-analysis of the deposited data

Results flagged for a closer look

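Of 80 groups of 4 libraries tested for a value far from the others, 2 stood out by Dixon's test, and chance gives about 1 in 20. Both were cKO iNK replicate 4. Rpl34 was at 137 CPM there and at 83.4, 88.6 and 88.6 CPM in the other cKO iNK libraries. Rplp2 was at 148 CPM there and at 70.0, 71.6 and 77.5 CPM in the others.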

How the results depend on the processing

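The 5 medians of the ribosomal protein genes kept their sign in all alternatives run, but those between genotypes were small and varied several-fold. Over the alternatives other than omitted libraries they ran from −0.29 to −0.05 in iNK (−0.05 with no scaling) and 0.16 to 0.31 in iILC1, and from 0.19 to 0.54 for the interaction. Over single omitted libraries they ran from −0.39 to −0.08, 0.09 to 0.50 and 0.27 to 0.69. Without both control iNK replicate 1 and cKO iILC1 replicate 1 they were −0.10, 0.09 and 0.21. Both genotype comparisons and the interaction had 0 calls throughout; the interaction uses all groups, so that it had no fit of fewer groups. The percentages that follow in brackets are the share of all genes called lower in the same fit. For cell type in control the 44 calls (3.0%) became 9 with the background covariate (1.71%), 72 with only the groups compared (5.94%) and 70 with DESeq2 (6.58%). They ran from 1 to 67 when a library was left out. There were 2 without control iNK replicate 1 (1.20%), and 1 and 3 without control iILC1 replicates 2 and 3 (0.875% and 1.10%). Without cKO iILC1 replicate 1 there were 67 (5.32%). For cell type in cKO the 0 calls became 18 with no scaling, 5 with upper quartile scaling, 1 with no filter, 10 with the 5 CPM filter, 4 with the covariate, 19 without control iNK replicate 1 and cKO iILC1 replicate 1, 1 with only the groups compared, 2 with DESeq2, and 0 to 16 when a library was left out (16 without cKO iILC1 replicate 1). Estimates changed sign in control for 3 genes that never passed: Rpl39l (0.24 with no scaling, 0.12 with upper quartile scaling and −0.24 to 0.079 when a library was left out), Rpl10l (−0.35 with the covariate) and Rpl3l (−0.00047 with the covariate and −0.11 to 0.98 when a library was left out). The cause of these moves was not tested. With the replicate block the calls were 68 in control, where 6.14% of all genes were called lower, and 2 in cKO, where 2.33% were. Same-numbered libraries of different groups correlated between −0.09 and 0.35, and differently numbered ones between −0.44 and 0.32. These ranges overlap, so they do not settle whether the replicate numbers pair the samples.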
